A study of Mus musculus with 4 samples.

Results

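Signalling through the epidermal growth factor receptor was followed at the transcript level in sorted epithelial cells of the mouse stomach, by a set of 10 listed genes. The set held 4 ligands of the receptor (Areg, Ereg, Hbegf, Tgfa), the receptor itself (Egfr), the receptor inhibitor Errfi1, the 3 Sprouty genes Spry1, Spry2 and Spry4, and the ERK phosphatase gene Dusp6. Of these, 9 had a row among the 17712 genes of the count table and Ereg was not analysed here. The genes were chosen by their levels across clusters and their GFP+ and Epcam+ values in these same libraries, so their levels and the differences between sorts are given as a description, with no test on any of them.

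The mice carried Rosa26iH2b-GFP, in which a doxycycline-inducible H2b-GFP and the Tet-on 3G activator that drives it, under the constitutive EF1a promoter, sit at the Rosa26 locus, and were 14 weeks old. They received doxycycline for 4 weeks and were then chased without it for 6 weeks, so that GFP stayed in cells that had diluted the labelled histone little. GFP+ libraries held Epcam-positive cells that had kept GFP, and Epcam+ libraries held Epcam-positive cells taken without regard to GFP, with 2 libraries of each sort. In both sorts the cells were Calcein Blue-positive, TO-PRO3-negative, Cd45-negative and Cd31-negative, and cells of 2 mice were combined, so a library is not known to be 1 animal and the spread between libraries may be technical.

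Amphiregulin, epiregulin, HB-EGF and TGF-alpha are made as membrane-bound precursors, are shed by ADAM proteases and bind EGFR, which signals through Ras, Raf, MEK and ERK. ERK signalling induces genes that dampen it. Sprouty proteins act on the pathway upstream of ERK, DUSP6 removes phosphate from ERK in the cytoplasm, and the product of Errfi1 (MIG6) binds the EGFR kinase domain and inhibits it. In the gastric corpus, TGF-alpha is best known for its link to surface mucous cell growth.

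The libraries held 467 and 444 GFP+ cells and 1642 and 1896 Epcam+ cells, with a median of 45119 and 104840 UMIs (unique molecules) per cell in GFP+ and 35067 and 31735 in Epcam+. The deposited annotation placed the 4449 cells in 10 clusters, and only 4 barcodes occurred in more than 1 library. The cluster names follow the study, and marker genes were checked against them. Muc6 and Pga5 peaked in cluster 0 (neck), whereas Tff2, also listed for neck cells, was highest in isthmus cluster 3 (31992 CPM, against 24816 in cluster 0). Clps peaked in cluster 1 and Cblif and Furin in cluster 5 (chief), Gkn1 in cluster 2 (pit), Top2a in cluster 4 and Pcna in cluster 3 (isthmus), Chga in cluster 6 and Ghrl in cluster 7 (endocrine), and Atp4a in cluster 8 (parietal), while Lrmp had 2065 UMIs in the 32 cells of cluster 9 (tuft). Ptprc and Pecam1, which mark leukocytes and endothelium, had no UMI because the authors removed every cell with a count of either. Their absence is therefore no check on the cells. Cd74, the other immune marker measured, had 10.4 and 71.7 CPM in GFP+ pit cells and 1.11 and 1.80 CPM in Epcam+ pit cells. A level below is in CPM, the UMIs of a gene scaled to a fixed total of UMIs over a library's cells in that cluster, over libraries with at least 20 cells there, which leaves clusters 3, 4 and 8 with the 2 Epcam+ libraries only, cluster 7 with 3 libraries and cluster 9 with none. In chief cells 3 genes, Clps, Pla2g1b and Pgc, held 81.7% to 82.6% of all UMIs in cluster 1 and 54.8% to 61.8% in cluster 5, against 13.1% to 21.5% in neck cells and 0.692% to 1.43% in pit cells, so every other gene's CPM is lowered in chief cells by construction. In endocrine cluster 7 these genes held 25.7% in the GFP+ library and 44.1% and 21.0% in Epcam+, and 9 of its 88 cells (10.2%) were called doublets. The part of mixed cells in the levels of cluster 7 was not tested. Levels were therefore also computed as CPM of the UMIs outside Clps, Pla2g1b and Pgc. Both are given for the main changes in the order of clusters, not for every gene. On the second scale the chief markers Cblif and Furin peaked in cluster 1.

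Areg was highest in pit cells, at 114 and 89.0 CPM in GFP+ and 63.4 and 74.7 CPM in Epcam+ (mean 85.3 ± 21.9, SD, n = 4 libraries). The Epcam+ libraries had 31.0 and 55.3 CPM in isthmus cluster 4 and 40.5 and 44.2 CPM in isthmus cluster 3, and these 2 clusters could not be ordered, since their ranges overlapped. Neck cells followed at 21.2 ± 6.57 CPM (n = 4) and cluster 5 chief cells at 6.56 ± 1.69 CPM (n = 4), where 55 of its 84 UMIs lay in 37 cells called doublets. Amphiregulin transcripts were thus spread over the pit, isthmus and neck compartments, while the other clusters held few UMIs. Cluster 1 chief cells had 12 UMIs in 896 cells, endocrine cluster 6 had 3 in 224 cells, parietal cells had 2 in 51, and endocrine cluster 7 had none in 88, which allows a share of up to 3.41% of cells with a UMI at this depth and sets no limit on cells that express the gene.

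Fewer neck cells than pit or isthmus cells carried Areg. A UMI was found in 52.3% of pit cells, 14.4% of neck cells and 1.34% of cluster 1 chief cells, at a median of 37728, 23534 and 125624 UMIs per cell. When each cell was thinned to 12773 UMIs outside the 3 chief genes, leaving out shallower cells (15, 112 and 124), the shares were 33.0%, 11.5% and 0.967%. Isthmus clusters 3 and 4 had 41.8% and 47.5% of cells with a UMI, and 24.9% and 26.6% after thinning. Before thinning, the share in cluster 1 was the same as the 1.34% of endocrine cluster 6 (median 19705 UMIs). Cluster 1 cells were the deepest by all UMIs, but most of these UMIs came from the 3 chief genes. After thinning, the shares were 0.967% in cluster 1 and 0.550% in cluster 6. Whether either share is background was not tested. In neck cells the top 10% of cells by Areg held 83.3% to 98.0% of its UMIs in each library, against 38.3% to 65.4% in pit cells. This follows in large part from the shares of 14.4% and 52.3% above, and no subset of neck cells is read from it.

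Tgfa had its highest level in the same place. It reached 23.9 and 21.4 CPM in GFP+ pit cells and 20.7 and 22.7 CPM in Epcam+ pit cells, with 18.4 ± 0.427 CPM in isthmus cluster 3 and 15.3 ± 2.29 CPM in isthmus cluster 4 (n = 2 each). No library range of these 3 clusters overlapped its neighbour's. Endocrine cluster 6 came next at 11.6 ± 4.08 CPM (n = 4), overlapping isthmus cluster 4 above it and neck cells at 7.42 ± 2.17 CPM below it (n = 4), and cluster 1 chief cells were lowest at 0.286 ± 0.0980 CPM (n = 4), also outside the 3 chief genes (1.61 CPM). Tgfa thus had a level in Chga-rich endocrine cells, where Areg had 3 UMIs. With libraries of at least 10 cells taken in, tuft cluster 9 had the highest mean of Tgfa. It was 22.7 CPM, beside 22.2 CPM in pit cells, and the cluster held 14 UMIs in 32 cells.

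Hbegf, the third measured ligand, was broad. Neck cells had 277 and 430 CPM in GFP+ and 273 and 308 CPM in Epcam+, and pit cells 272 and 234 CPM in GFP+ and 250 and 242 CPM in Epcam+. It stood at 219 ± 25.8 and 200 ± 16.1 CPM in isthmus clusters 3 and 4 (n = 2 each), 160 ± 70.1 and 152 ± 26.5 CPM in endocrine clusters 7 (n = 3) and 6 (n = 4), and 137 ± 45.3 CPM in cluster 5. All neighbours from pit cells down to cluster 5 overlapped. Parietal cells had 54.7 ± 1.82 CPM (n = 2). Cluster 1 chief cells were lowest by CPM, at 36.3 ± 15.3, but outside the 3 chief genes they had 206 CPM, the sixth of 9, and parietal cells were lowest with 55.7 CPM. On that scale cluster 5 was second with 323 CPM, so the place of chief cells for this ligand is set by the scaling.

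Egfr had the profile of Areg and Tgfa. Pit cells had 11.8 and 18.5 CPM in GFP+ and 15.1 and 17.7 CPM in Epcam+, isthmus clusters 3 and 4 had 14.1 ± 1.58 and 12.7 ± 2.02 CPM (n = 2 each), and neck cells 7.86 ± 2.83 CPM (n = 4). These 4 clusters formed a run in which each overlapped the next. The remaining clusters had 3.89 CPM or less on average, and cluster 1 chief cells were lowest on both scales, with 19 UMIs in 896 cells (0.170 ± 0.101 CPM, or 0.949 CPM outside the 3 genes). Over the 9 cluster means, the log2 level of Egfr went with that of Areg at Pearson r = 0.86 and with that of Tgfa at r = 0.91, outside the 3 chief genes at 0.87 and 0.87, and over the 7 clusters other than chief at 0.99 and 0.76. These are descriptions over 9 points that share libraries and cells, without a p.

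**Figure D1:**
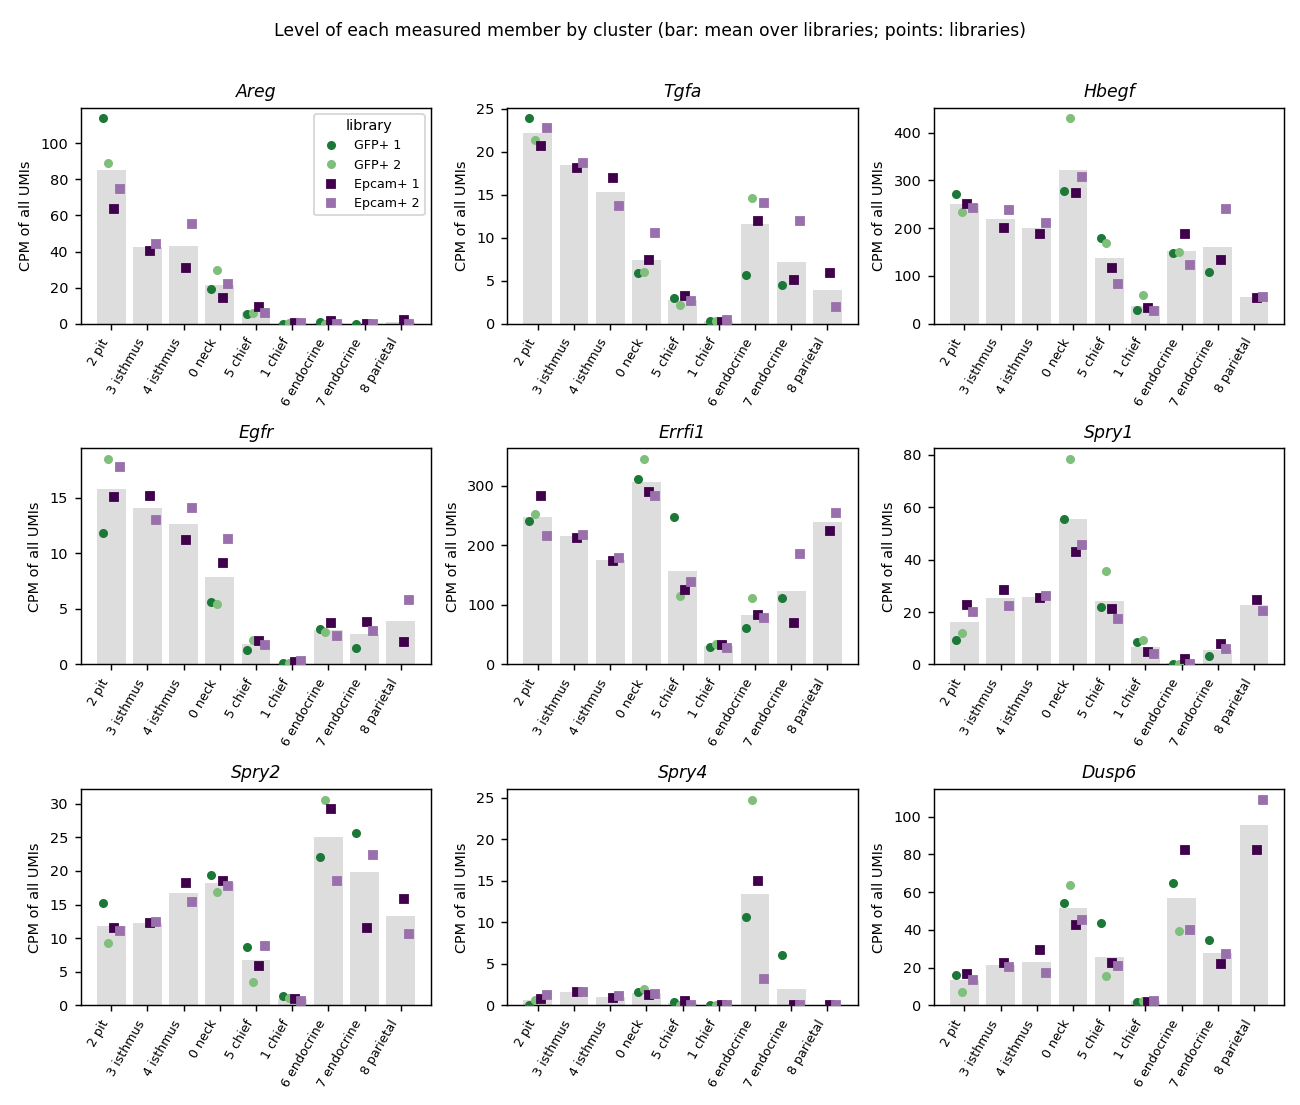
Level of the 9 measured genes in 9 clusters, in CPM of all UMIs. Each point is a library with at least 20 cells in the cluster (circles GFP+, squares Epcam+) and each bar is the mean over libraries. Areg, Tgfa and Egfr are highest in pit cells, Hbegf, Errfi1 and Spry1 in neck cells, Spry2 and Spry4 in endocrine cluster 6 and Dusp6 in parietal cells, and cluster 1 chief cells have low values throughout on this scale.

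Areg lies on chromosome 5 at 91139599 to 91148432 (plus strand), next to Ereg at 91074622 to 91093646 on the same strand, and Egfr on chromosome 11 at 16752203 to 16918158 (plus strand, GRCm38). The 250 bases before the RefSeq start of 3 genes of the set are shown to compare the ligand, its receptor and the receptor inhibitor, with every occurrence of a searched motif in capitals. The motifs, searched on both strands, were the cyclic AMP response element TGACGTCA, the TATA box TATAAA, the SP/KLF box GGGCGG, the ETS site CCGGAAG, the AP-1 site TGANTCA and the serum response CArG box.
Areg: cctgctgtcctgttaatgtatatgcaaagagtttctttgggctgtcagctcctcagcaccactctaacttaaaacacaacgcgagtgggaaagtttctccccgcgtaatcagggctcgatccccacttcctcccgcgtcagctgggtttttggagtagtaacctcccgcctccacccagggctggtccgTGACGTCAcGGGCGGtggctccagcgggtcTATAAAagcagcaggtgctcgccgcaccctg
Egfr: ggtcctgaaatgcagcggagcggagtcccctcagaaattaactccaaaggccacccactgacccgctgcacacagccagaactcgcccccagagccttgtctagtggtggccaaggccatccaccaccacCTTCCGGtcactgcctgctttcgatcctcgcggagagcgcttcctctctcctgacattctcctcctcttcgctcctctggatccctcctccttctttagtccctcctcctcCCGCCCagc
Errfi1: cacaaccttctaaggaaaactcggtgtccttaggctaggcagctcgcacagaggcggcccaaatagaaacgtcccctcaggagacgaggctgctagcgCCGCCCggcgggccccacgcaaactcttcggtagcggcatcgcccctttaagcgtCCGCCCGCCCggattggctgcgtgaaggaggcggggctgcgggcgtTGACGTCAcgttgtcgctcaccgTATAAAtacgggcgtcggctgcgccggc
Areg runs from 91139349 to 91139598 on chromosome 5, Egfr from 16751953 to 16752202 on chromosome 11 and Errfi1 from 150854820 to 150855069 on chromosome 4, where the second of 2 RefSeq starts of Errfi1 lies inside the annotated gene. The window before the first start of Errfi1, 150853546 to 150853795, held none of the searched motifs and is not shown. The windows shown for Areg and Errfi1 each held both the cyclic AMP response element, found in 1.55% of 32851 promoters of this length, and the TATA box, found in 12.4%. Of the 7 genes of the set with an entry, 5 held the SP/KLF box in at least 1 window (32.7% of all promoters), Egfr alone held the ETS site (6.91%), and none held the AP-1 site (6.75%) or the CArG box (1.47%) in these windows. The percentages count windows, whereas a gene can have more than 1. A match is a run of letters and says nothing of binding.

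Errfi1, the inhibitor of the receptor, had another order of clusters than the receptor. It was highest in neck cells, with 310 and 345 CPM in GFP+ and 289 and 283 CPM in Epcam+, followed by pit cells at 248 ± 27.7 CPM (n = 4) and parietal cells at 240 ± 21.4 CPM (n = 2), where Egfr had 8 UMIs in 51 cells. The range of pit cells overlapped those of neck and of parietal cells. Isthmus clusters 3 and 4 had 215 ± 3.43 and 176 ± 3.05 CPM (n = 2 each), in which the lower range lay apart from the higher. Endocrine cluster 6 had 83.4 ± 21.6 CPM (n = 4). Cluster 1 chief cells were lowest with 31.3 ± 3.11 CPM but had 177 CPM outside the 3 chief genes, while cluster 5 chief cells had 156 ± 61.2 CPM and 360 CPM outside them, second to neck cells at 372 CPM.

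Spry1, an inhibitor induced by receptor tyrosine kinase signalling, marked neck cells among the clusters. They had 55.6 and 78.5 CPM in GFP+ and 42.8 and 45.4 CPM in Epcam+, and by CPM their range overlapped no other cluster's. Isthmus clusters 4 and 3 (25.6 ± 0.642 and 25.4 ± 4.40 CPM, n = 2 each), cluster 5 chief cells (24.1 ± 7.99 CPM, n = 4), parietal cells (22.5 ± 3.15 CPM, n = 2) and pit cells (16.0 ± 6.27 CPM, n = 4) formed a run of overlapping neighbours. Spry1 was all but missing from endocrine cluster 6, with 3 UMIs in 224 cells against 14 in the 88 cells of endocrine cluster 7. Cluster 1 chief cells had 6.59 ± 2.63 CPM, the seventh of 9, but 37.4 ± 15.5 CPM outside the 3 chief genes, the third of 9, and cluster 5 then had 57.2 ± 24.5 CPM beside 67.6 ± 21.8 CPM in neck cells.

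Spry1 spans 37639947 to 37644598 on chromosome 3 (plus strand, GRCm38), and the 250 bases before its start, 37639697 to 37639946, are shown because this gene separated both the clusters and the sorts, with the 1 searched motif that matched, the SP/KLF box, in capitals.
Spry1: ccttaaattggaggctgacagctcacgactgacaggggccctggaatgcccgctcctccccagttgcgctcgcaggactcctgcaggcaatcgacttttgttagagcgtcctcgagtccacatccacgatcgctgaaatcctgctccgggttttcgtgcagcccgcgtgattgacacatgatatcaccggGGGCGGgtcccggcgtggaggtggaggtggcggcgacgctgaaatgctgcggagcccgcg

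**Figure D2:**
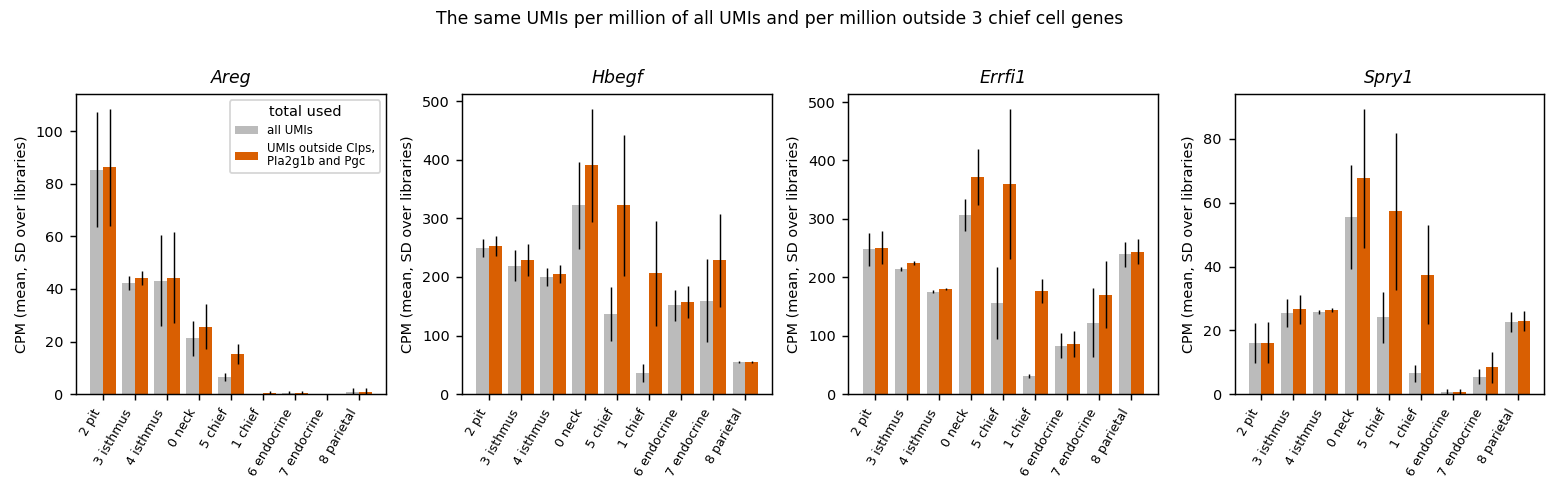
Mean level of Areg, Hbegf, Errfi1 and Spry1 in 9 clusters, as CPM of all UMIs (grey) and of the UMIs outside Clps, Pla2g1b and Pgc (orange), with the SD over libraries. The 2 scales are close in pit, isthmus, parietal and endocrine cluster 6 cells and farther apart in neck cells (Hbegf 390.1 against 321.9 CPM) and endocrine cluster 7, and in cluster 1 Spry1 moves to 37.4 CPM and Hbegf to 206 CPM, whereas Areg stays near 0.

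Spry2 and Spry4, relatives of Spry1, peaked elsewhere. Spry2 had 22.0 and 30.6 CPM in GFP+ and 29.2 and 18.4 CPM in Epcam+ endocrine cluster 6, overlapping endocrine cluster 7 (19.9 ± 7.46 CPM, n = 3) and neck cells (18.2 ± 1.07 CPM, n = 4) and lying just above isthmus cluster 4 (16.8 ± 1.96 CPM, n = 2). Outside the 3 chief genes cluster 7 led with 27.8 CPM. By UMIs per cell, which are not scaled for depth, isthmus cluster 4 led with 0.771, beside 0.614 in endocrine cluster 6. Which cluster was highest thus depended on the scaling. Spry2 was lowest in cluster 1 chief cells on both scales, at 0.989 ± 0.291 CPM or 5.61 CPM outside the 3 genes. Spry4 was rare, with 59 UMIs in the 224 cells of endocrine cluster 6 and 37 or fewer in every other cluster. In cluster 6 it had 10.7 and 24.8 CPM in GFP+ and 15.0 and 3.18 CPM in Epcam+, the last from 5 UMIs, and elsewhere averaged 2.02 CPM or less, though cluster 7 (2.02 ± 3.49 CPM, n = 3) overlapped it. None of its UMIs fell in the 896 cells of cluster 1, which allows up to 0.335% of cells with a UMI. Over the 9 clusters Spry1 and Spry4 went in opposite directions (r = -0.63, or -0.79 outside the 3 chief genes), while Spry1 went with Errfi1 (0.68, or 0.89).

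Dusp6, whose product acts on ERK itself, had its highest mean in parietal cells, where the 2 Epcam+ libraries had 82.1 and 109 CPM and 86.3% of 51 cells had a UMI (60.8% after thinning). Endocrine cluster 6 had 64.8 and 39.4 CPM in GFP+ and 82.5 and 40.0 CPM in Epcam+, and its range overlapped both that of parietal cells, by its first Epcam+ library, and that of neck cells (51.7 ± 9.69 CPM, n = 4). Pit cells, which led for Egfr, Areg and Tgfa, had 13.4 ± 4.52 CPM (n = 4), below all other clusters but cluster 1. Cluster 5 chief cells had 25.6 ± 12.3 CPM (n = 4, rank 5) but 58.7 CPM outside the 3 chief genes (rank 3). On that scale neck cells had 62.8 CPM and endocrine cluster 6 had 58.4 CPM. Cluster 1 chief cells were lowest on both scales, with 2.13 ± 0.239 CPM and 12.1 CPM outside the 3 genes.

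Some genes had nearly the profile of a member over the 9 clusters, among 8231 genes with a mean of at least 20 CPM in a cluster, by Pearson r of log2(CPM + 1). This is CPM of all UMIs, on which most genes share low values in chief cells. For Areg they were Adgrg2 (r = 0.99), Ccdc141 (0.98) and Capg (0.98), all highest in pit cells, and for Tgfa they were Akap7 (0.99), Ap3s1 (0.98) and Efna5 (0.98). For Spry1 they were Slc1a5 (0.99), Zfp36l1 (0.99) and Habp2 (0.96), all highest in neck cells. For Dusp6 they were Ano6 (0.99), Phpt1 (0.98) and Ank3 (0.98), for Errfi1 they were Sorl1 (0.98), Tmtc2 (0.97) and Sft2d1 (0.97), for Hbegf they were Fndc3b (0.97), Arid5b (0.96) and Nxnl2 (0.96), and for Spry2 they were Rbm5, Crebbp and Smarcd1 (0.99 or above each). Egfr and Spry4 had no cluster with 20 CPM.

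The wider pathway was read from a list of 63 genes that holds none of the set, of which 60 had a row (Erbb4, Nrg1 and Nrg3 were not analysed here). By CPM, 21 of the 60 were highest in endocrine cluster 6, 12 in pit cells, 10 in parietal cells and 5 in neck cells. None was highest in cluster 1, where 3 genes held most UMIs. The same count over all genes was not made, and genes with few UMIs were counted too (Nrg4 had 30 in all). Nothing about the pathway is read from these counts. The other measured receptors were, like Egfr, highest in pit cells. Erbb2, the shared partner of the family, had 31.6 ± 1.94 CPM in pit cells (n = 4) and Erbb3, which binds neuregulins, 69.8 ± 6.95 CPM (n = 4). Isthmus cluster 4 came close for both, with 30.2 ± 0.482 and 65.4 ± 7.67 CPM (n = 2 each). Among the other ligands, Btc (betacellulin) was highest in isthmus cluster 4 with 56.6 ± 6.01 CPM (n = 2), beside 49.2 ± 4.72 CPM in pit cells. Egf itself was highest in endocrine cluster 6 by CPM (8.79 ± 2.67, n = 4) and in cluster 1 chief cells outside the 3 chief genes, and Nrg2 was highest in endocrine cluster 6 with 6.28 ± 3.85 CPM (n = 4).

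Genes that shed the ligands, relay the signal or dampen it had their highest means in different compartments, several of them by a small margin. The sheddase gene Adam10 had 91.2 ± 4.51 CPM in pit cells (n = 4). Adam17 had nearly equal means in isthmus cluster 3 (26.1 ± 0.992 CPM), parietal cells (25.9 ± 1.14 CPM) and isthmus cluster 4 (25.7 ± 1.79 CPM, n = 2 each). Timp3, an inhibitor of ADAM17, had 18.8 ± 23.3 CPM in cluster 7 (n = 3) and 14.4 ± 13.3 CPM in cluster 5 (n = 4). In cluster 7 the summed fibroblast and muscle markers (3 of 4 measured, Col3a1, Dcn and Acta2) were 0 CPM in the 1 GFP+ library and 189 and 145 CPM in the Epcam+ libraries, and their part in the level of Timp3 was not tested. Parietal cells had the highest mean of Hras, a small GTPase that relays the signal, at 166 ± 38.8 CPM (n = 2). Isthmus clusters 4 and 3 were close, at 159 ± 3.84 and 155 ± 3.35 CPM (n = 2 each). Lrig1, a transmembrane inhibitor of ERBB receptors, was also highest in parietal cells with 98.9 ± 39.1 CPM (n = 2). Neck cells led for the phosphatase genes Dusp1 (654 ± 193 CPM) and Dusp5 (127 ± 29.4 CPM, n = 4 each), and pit cells by CPM for Fos (3649 ± 533 CPM), Egr1 (1468 ± 72.4 CPM) and Ier2 (1673 ± 279 CPM, n = 4 each), which ERK and cell dissociation both induce. Neck cells came close for Fos, Egr1 and Ier2, with 3516 ± 567, 1419 ± 268 and 1603 ± 162 CPM, and pit cells for Dusp1, with 560 ± 46.1 CPM. Outside the 3 chief genes neck cells led for Fos and cluster 5 chief cells for Egr1 and Ier2.

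Cells sorted as GFP+ were set against Epcam+ cells within clusters 0, 1, 2, 5 and 6. These 5 clusters had at least 20 cells in each of the 4 libraries. Retention of the label by the GFP+ cells of each cluster was not tested. Values below are CPM with TMM factors (edgeR's scaling for composition), computed within a cluster, and a fold change is GFP+ over Epcam+ on the log2 scale with its standard error. GFP+ cells were deeper in each of these clusters, and in neck cells had a median of 34587 and 31133 UMIs in GFP+ against 24843 and 21521 in Epcam+.

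Spry1 differed in direction between clusters. In neck cells it had 59.1 and 80.8 CPM in GFP+, against 42.0 and 42.6 CPM in Epcam+ (0.70 ± 0.15, SE). In cluster 1 chief cells it had 8.58 and 9.46 CPM in GFP+, against 4.92 and 3.65 CPM in Epcam+ (1.09 ± 0.16, SE). In pit cells it was reversed, with 9.57 and 13.0 CPM in GFP+, from 27 and 21 UMIs, against 21.6 and 19.1 CPM in Epcam+ (-0.90 ± 0.21, SE). The 2 sorts thus did not overlap in any of these 3 clusters. In cluster 5 they overlapped, with 20.8 and 40.9 CPM in GFP+ and 21.2 and 16.3 CPM in Epcam+ (0.67 ± 0.29, SE). The share of cluster 1 cells with a Spry1 UMI was 28.6% and 30.0% in GFP+ and 25.4% and 17.3% in Epcam+ after thinning to 1 depth, against 38.6% and 40.5% in GFP+ and 32.0% and 21.1% in Epcam+ before it. In endocrine cluster 6, 1.34% of cells had a Spry1 UMI, against 31.9% in cluster 1, and after thinning the shares were 0.786% and 24.8%.

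Dusp6 and Errfi1 stood higher in GFP+ neck cells. Dusp6 had 58.0 and 65.9 CPM in GFP+, against 41.9 and 42.5 CPM in Epcam+ (0.54 ± 0.11, SE), and 1 cell held 17.8% of its UMIs in the second GFP+ library. Errfi1 had 330 and 355 CPM in GFP+, against 283 and 265 CPM in Epcam+ (0.32 ± 0.09, SE). In cluster 1 both overlapped between the sorts, at 0.16 ± 0.21 for Dusp6 and 0.14 ± 0.13 for Errfi1 (SE). In cluster 5 Errfi1 had 233 and 132 CPM in GFP+, against 124 and 131 CPM in Epcam+ (0.53 ± 0.23, SE), so that only the first GFP+ library stood clear, and without it the value was 0.060. Spry2 overlapped in neck, pit, cluster 5 and endocrine cells and stood higher in cluster 1, with 1.40 and 1.05 CPM in GFP+ and 0.879 and 0.657 CPM in Epcam+ (0.66 ± 0.32, SE). Spry4 had 1.70 and 2.04 CPM in GFP+ and 1.19 and 1.23 CPM in Epcam+ neck cells, from 37 UMIs in all.

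The receptor and Tgfa went the other way in neck cells. Egfr had 5.94 and 5.62 CPM in GFP+, against 8.94 and 10.6 CPM in Epcam+ (-0.75 ± 0.25, SE), and Tgfa had 6.22 and 6.13 CPM in GFP+, against 7.21 and 9.85 CPM in Epcam+ (-0.46 ± 0.29, SE). In pit cells Egfr overlapped (-0.06 ± 0.24, SE), and Tgfa had 24.5 and 22.9 CPM in GFP+, just above 19.7 and 21.9 CPM in Epcam+ (0.20 ± 0.15, SE).

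Areg stood higher in GFP+ pit cells, with 117 and 95.4 CPM in GFP+, against 60.4 and 71.9 CPM in Epcam+ (0.69 ± 0.14, SE). The share of pit cells with an Areg UMI was 76.2% and 77.8% in GFP+ and 52.6% and 48.2% in Epcam+, and 44.0% and 46.1% in GFP+ and 32.1% and 31.8% in Epcam+ after thinning. The GFP+ values rest on 42 and 27 cells, in which a single cell held 21.0% and 15.6% of the UMIs, against 4.25% and 4.48% in Epcam+. In neck cells Areg overlapped (0.52 ± 0.26, SE).

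Hbegf in cluster 5 chief cells had 169 and 194 CPM in GFP+, against 116 and 77.8 CPM in Epcam+ (0.90 ± 0.20, SE), with 24.1% and 19.5% of the UMIs in 1 cell of the GFP+ libraries and 11.4% and 11.0% in 1 cell of the Epcam+ libraries. Without the cells called doublets the fold change was 0.69. In cluster 1 the sorts overlapped, with 28.5 and 60.6 CPM in GFP+ and 32.9 and 24.5 CPM in Epcam+ (0.65 ± 0.28, SE), and without the second GFP+ library the value was -0.0054. Neck cells had 295 and 443 CPM in GFP+, against 267 and 289 CPM in Epcam+ (0.40 ± 0.17, SE), and without the second GFP+ library the value was 0.085. The library in question was thus the highest of the 4 in neck, cluster 1 and cluster 5 cells.

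**Figure D3:**
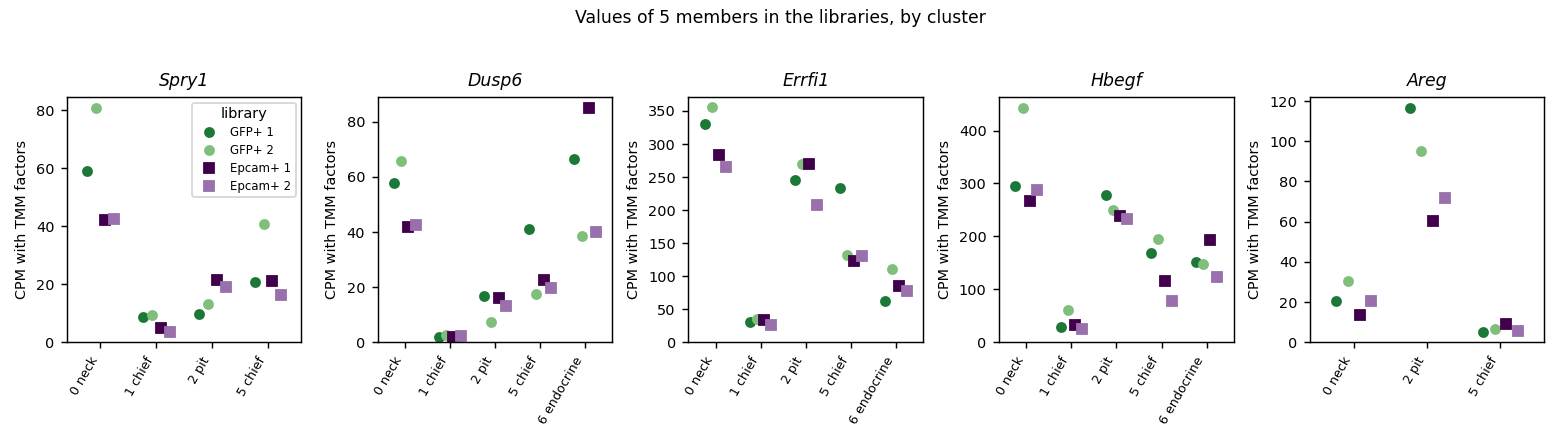
Values of Spry1, Dusp6, Errfi1, Hbegf and Areg in each library (circles GFP+, squares Epcam+), in CPM with TMM factors within a cluster. Spry1 has its GFP+ points above its Epcam+ points in neck and cluster 1 chief cells and below them in pit cells, and the second GFP+ library is highest for Hbegf in the neck and both chief clusters.

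In endocrine cluster 6 the sorts overlapped for each of the 6 genes tested there, with fold changes between -0.60 (Tgfa) and 0.83 (Spry4). Of the 9 measured genes, 9 passed the filter on low counts in neck cells, 5 in cluster 1, 8 in pit cells, 6 in cluster 5 and 6 in cluster 6. Those left out were Spry4 in clusters 1, 2 and 5, Egfr and Tgfa in clusters 1 and 5, Areg in clusters 1 and 6, and Spry1 and Egfr in cluster 6. The 2 GFP+ values both exceeded the 2 Epcam+ values for 5 of 9 genes in neck cells (21.5% of all genes tested), 2 of 5 in cluster 1 (19.3%), 3 of 8 in pit cells (22.8%), 2 of 6 in cluster 5 (19.1%) and 0 of 6 in cluster 6 (18.5%), and both lay below them for 2 of 9 in neck cells (22.1%), 0 of 5 in cluster 1 (18.6%), 1 of 8 in pit cells (26.0%), 0 of 6 in cluster 5 (20.6%) and 0 of 6 in cluster 6 (18.2%). The median fold change of the tested members was 0.40 in neck cells, 0.65 in cluster 1, 0.14 in pit cells, 0.53 in cluster 5 and -0.038 in cluster 6, beside 0.0087, 0.0082, -0.0040, 0.0026 and 0.0020 over all genes. Since these contrasts helped to choose the genes, nothing is read from the counts.

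**Figure D4:**
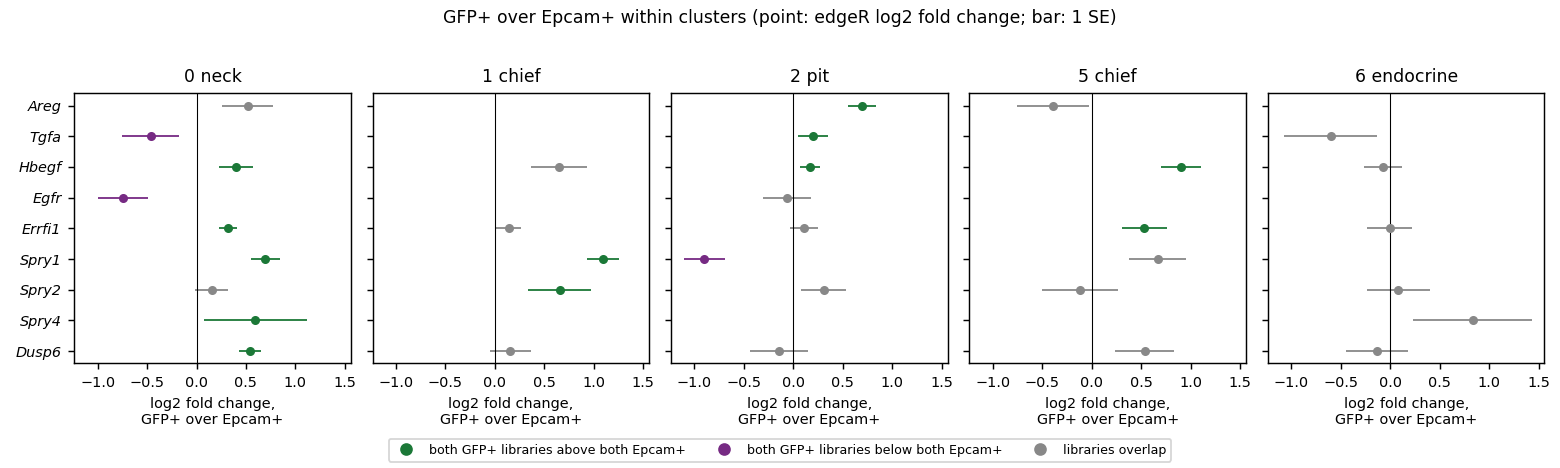
Log2 fold change of GFP+ over Epcam+ (edgeR, bars 1 SE) for the members that passed the filter in 5 clusters. Green marks genes whose 2 GFP+ values both exceeded the 2 Epcam+ values, purple the opposite and grey an overlap. Spry1 is at 0.70 in neck, 1.09 in cluster 1 and -0.90 in pit cells, and endocrine cluster 6 has no gene with separate sorts.

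Dissociation and stress genes moved with some of these values. The summed level of 9 such genes (Fosb, Jun, Junb, Atf3, Hspa1a, Hspa1b, Dnajb1, Hsp90aa1 and Hspa8) was 13464 and 19545 CPM in GFP+ and 11784 and 14863 CPM in Epcam+ neck cells, 2733 and 4277 CPM in GFP+ and 2586 and 2458 CPM in Epcam+ cluster 1 cells, and 8967 and 9452 CPM in GFP+ and 6759 and 7003 CPM in Epcam+ cluster 5 cells. The second GFP+ library was the highest in each, as it was for Hbegf. In pit cells the sorts overlapped, with 12604 and 12106 CPM in GFP+ and 13197 and 12497 CPM in Epcam+. The summed chief markers (8 of 8 measured) in neck cells were 25838 and 26177 CPM in GFP+ and 13853 and 14486 CPM in Epcam+, and the summed pit markers (4 of 4) in pit cells were 116041 and 154198 CPM in GFP+ and 81595 and 91666 CPM in Epcam+. In cluster 5, 37 of the 278 cells (13.3%) were called doublets, the highest share of any cluster, and held 32.4% of its UMIs. The part of the stress genes and of the chief and pit markers in the members' values was not tested.

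For the wider list, which holds none of the members, edgeR's quasi-likelihood test with Benjamini-Hochberg adjustment over all genes called 0 of 52 tested genes in neck cells, 0 of 47 in cluster 1, 0 of 52 in pit cells, 0 of 49 in cluster 5 and 0 of 46 in cluster 6. Over all genes it called 0.159%, 0.0887%, 0.364%, 0.309% and 0.221%, which is 9 to 40 genes a cluster, so this test called few genes of any kind. At an unadjusted p under 0.05 the list had 8 genes in neck cells (3 higher and 5 lower in GFP+), 2 in cluster 1 (2 and 0), 13 in pit cells (8 and 5), 9 in cluster 5 (6 and 3) and 4 in cluster 6 (1 and 3), beside 11.4%, 7.97%, 16.0%, 8.43% and 7.01% of all genes. DESeq2 called 1, 0, 1, 1 and 0 list genes, beside 0.935%, 0.191%, 2.07%, 0.532% and 0.1% of all genes. Other settings gave other counts. With the replicate number as a block, list genes were called in neck, cluster 1, pit and endocrine cluster 6 cells, as given at the end.

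The sorts lay apart for several genes of the list, but none passed the test. In neck cells both GFP+ values were above both Epcam+ values for 5 of 52 list genes and below for 13 (21.5% and 22.1% of all genes). The counts were 6 and 6 of 47 in cluster 1 (19.3% and 18.6%) and 14 and 14 of 52 in pit cells (22.8% and 26.0%). They were 13 and 11 of 49 in cluster 5 (19.1% and 20.6%) and 10 and 7 of 46 in cluster 6 (18.5% and 18.2%). Nothing is read from these counts, and the genes below are examples. Ier2, an immediate-early gene, had 230 and 307 CPM in GFP+ and 499 and 425 CPM in Epcam+ endocrine cluster 6 (-0.80 ± 0.15, SE), which did not pass (edgeR adjusted p = 0.0567). Dusp5, an ERK phosphatase of the nucleus, had 140 and 172 CPM in GFP+ and 103 and 98.3 CPM in Epcam+ neck cells (0.62 ± 0.12, SE, edgeR adjusted p = 0.164), and 63.8 and 70.1 CPM in GFP+ and 44.3 and 46.1 CPM in Epcam+ cluster 5 cells (0.56 ± 0.17, SE, edgeR adjusted p = 0.297). Without the cells called doublets the cluster 5 value was -0.025. Lrig1 had 60.5 and 47.5 CPM in GFP+ and 40.2 and 36.0 CPM in Epcam+ neck cells (0.53 ± 0.14, SE, edgeR adjusted p = 0.271). Egr1 had 831 and 1054 CPM in GFP+ and 587 and 587 CPM in Epcam+ cluster 5 cells (0.68 ± 0.19, SE, edgeR adjusted p = 0.237).

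Myc and Etv5, transcription factor genes chosen here after their values were seen, had lower values in GFP+ pit cells, without passing the test. Myc had 20.9 and 24.8 CPM in GFP+ and 38.4 and 46.8 CPM in Epcam+ (-0.93 ± 0.17, SE, edgeR adjusted p = 0.0814), and Etv5 had 2.48 and 1.24 CPM in GFP+ and 6.25 and 5.61 CPM in Epcam+ (-1.55 ± 0.41, SE, edgeR adjusted p = 0.142). In neck cells Myc had 11.0 and 22.5 CPM in GFP+ and 26.6 and 35.6 CPM in Epcam+ (-1.01 ± 0.29, SE, edgeR adjusted p = 0.291). In pit cells the kinase genes Map2k1 (0.36 ± 0.12, SE) and Mapk3 (0.37 ± 0.10, SE), also chosen after their values were seen, stood higher in both GFP+ libraries, at edgeR adjusted p = 0.206 and 0.142.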

How the data were processed

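Stomach epithelial cells of 4 libraries were sequenced with 10x Genomics 3' chemistry. The authors aligned reads to mm10 with Cell Ranger 3.0.2 and deposited raw UMI counts per gene and cell with cluster numbers. No doublet calls came with the files used here. The deposited counts were summed per library and cluster. Depth was 35571141 and 47222033 UMIs in GFP+ and 73876885 and 79455225 in Epcam+, and cells held 1504 to 7997 genes and at most 15.0% mitochondrial UMIs. These bounds follow from the authors' filters on genes per cell and mitochondrial share. Intervals and limits from a count of 0 (3 counts) cover counting error only.

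GFP+ was set against Epcam+ within a cluster by edgeR 4.0.16 (quasi-likelihood, TMM, filterByExpr, two-sided, threshold 0.05 on adjusted p, n = 2 libraries a sort), tested on simulated data, with DESeq2 1.42.0 as an alternative in R 4.3.3. The authors compared cells, which are not replicates. Other alternatives were library totals without TMM, no filter, the replicate number as a block, cells without called doublets (Scrublet in scanpy 1.11.5, run per library) and each library left out. Shares of cells were thinned by their exact expectation with scipy 1.17.1. The members, the wider list and the markers were chosen with earlier results of these data known. Named genes are all members, wider list genes past the threshold (there were none), the 3 genes of each role with the highest mean level, and the 3 genes most like each member with a mean of at least 20 CPM. Some genes that this rule names are not reported here. Myc, Etv5, Map2k1 and Mapk3 fall outside it and were chosen after their values were seen. Positions are GENCODE vM21 on GRCm38 and promoters RefSeq on GRCm38.p6, neither being the annotation of the counts.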

Additional observations from a re-analysis of the deposited data

Results flagged for a closer look

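For 2 genes both GFP+ libraries moved one way in 1 cluster and the opposite way in another. The share of all genes that did so was not counted. Within 1 cluster 18.2% to 26.0% of all genes tested lay apart in a given direction, so nothing is read from this count. Spry1 was above Epcam+ in neck cells and below it in pit cells, so that the 2 log2 fold changes differed by 1.60, and above it in cluster 1 chief cells and below it in pit cells, a difference of 2.00. Tgfa was above Epcam+ in pit cells and below it in neck cells, a difference of 0.66. The difference between clusters was not tested in these cases, because the genes were chosen with these values in view, and the GFP+ pit cells number 42 and 27.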

How the results depend on the processing

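Counts of calls depended on the setting, and the causes were not tested. Over all genes, in clusters 0, 1, 2, 5 and 6, edgeR called 18, 9, 40, 28 and 22 genes; DESeq2 called 38, 19, 161, 23 and 10. Without TMM factors the counts were 15, 14, 24, 44 and 38, with no filter 22, 236, 639, 178 and 140, and without called doublets 18, 8, 33, 0 and 3. Leaving out 1 library gave 7 to 275, 13 to 78, 114 to 156, 11 to 226 and 14 to 110. The labels give both sorts replicates 1 and 2 but name nothing shared, and deviations of same-numbered libraries correlated at 0.43, 0.38, 0.33, -0.03 and 0.23. With the replicate number as a block 665, 412, 222, 18 and 98 genes were called.

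Of the wider list, 0 genes were called in each cluster by edgeR, against 1, 0, 1, 1 and 0 by DESeq2, 0, 5, 4, 3 and 2 with no filter, 0, 0, 0, 0 and 1 without TMM factors, and 9, 6, 2, 0 and 2 with the replicate block. Leaving out 1 library gave 0 to 7, 0 to 3, 0 to 2, 0 to 5 and 0 to 2, with the highest counts without GFP+ replicate 1 in clusters 0, 1 and 5. Where a library was left out, the lone library of its sort is assumed to vary like the others.

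Of 303 alternative values of the 34 member fold changes, 252 moved by less than 1 standard error, 51 by more, and 24 changed sign. Of the 16 fold changes over 0.5 in size, 3 changed sign, namely Hbegf in cluster 1 without GFP+ replicate 2 (-0.0054), Dusp6 in cluster 5 without GFP+ replicate 1 (-0.25) and Tgfa in cluster 6 without GFP+ replicate 1 (0.11). Over the libraries left out, Spry1 ranged from 0.48 to 0.93 in cluster 0, 0.88 to 1.31 in cluster 1 and -1.09 to -0.64 in cluster 2, and Areg in cluster 2 from 0.53 to 0.82. With TMM factors the rank of cluster 1 among 9 clusters was 3 for Spry1 (7 by CPM) and 4 for Hbegf (9 by CPM). By UMIs per cell, not scaled for depth, pit cells and not neck cells were highest for Errfi1 (12.9 against 8.35) and Hbegf (13.1 against 8.75). Dusp5 in cluster 5 was at -0.025 without called doublets. GFP+ pit, cluster 5 and endocrine cells (26 to 62 a library) limit precision.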
